A study of Mus musculus with 6 samples.

Results

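The genes described here encode proteins of the mitochondrial ribosome and are those whose symbol begins with Mrpl (large subunit) or Mrps (small subunit) followed by a digit, each taken from 1 probe set, the one of highest average where a gene had several. They number 77 of the 19938 genes with a probe set of a single symbol, 48 named for the large and 29 for the small subunit. The mammalian mitochondrion keeps its own ribosome, and the proteins of that ribosome are encoded in the nucleus, translated in the cytosol and imported. The large subunit joins amino acids and the small subunit reads the messenger RNA, and the products are the few hydrophobic subunits of the respiratory chain that the mitochondrial genome encodes. Many mitoribosomal proteins have bacterial counterparts and others occur only in mitochondria. Dividing T cells build up mitochondria after activation, and mTORC1, the kinase complex that rapamycin inhibits, is known to control the translation of several messages for mitochondrial proteins.

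Splenic T cells of 6 B6D2F1/J mice were profiled on whole-transcript arrays, 1 array per mouse. Rapamycin mice received intraperitoneal rapamycin at 1.5 mg/kg every other day up to day 10 after transplantation (n = 3), and control mice received PBS in the same way (n = 3). All had been irradiated lethally and rebuilt with B6 marrow from which T cells had been removed; the protocol names recipients with and without B6 spleen cells and does not say which these were, and sex and age were not given in the labels. The sort took CD3+ spleen cells on day 10 and so holds T cells of any subset, and the share of donor and host cells is not known. Values are log2 expression after RMA and every difference is rapamycin minus PBS.

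Array medians lay between 6.03 and 6.17. Of 10 T cell markers 7 were measured, and their mean level per mouse was 11.08 to 11.30 with rapamycin and 11.14 to 11.31 with PBS. Purity of the sort cannot be read from these levels, because levels of different probe sets were not compared. Marker genes of other cells were measured alongside, with no threshold for detection. The mean over 14 neutrophil and granulocytic precursor genes was 8.82 to 9.91 with rapamycin and 8.21 to 9.52 with PBS. The mean over 11 monocyte and macrophage genes was 8.40 to 8.93 with rapamycin and 8.75 to 9.14 with PBS, and that over 8 natural killer cell genes was 7.41 to 7.64 with rapamycin and 7.40 to 7.89 with PBS. B cell genes (9) averaged 4.95 to 5.16 and erythroid genes (7) 6.23 to 6.72 over the 6 mice. These means do not show single markers. The groups did not overlap for Spic (-1.34, monocyte and macrophage list), Cd79b (-0.54, B cell), Ncr1 (-0.24, natural killer cell) and Cd5 (-0.19, T cell), all lower with rapamycin. Nor did they for Chil3 (0.62, neutrophil) and Lyz2 (0.29, monocyte and macrophage), both higher. Markers without overlap were 1 of 7 T cell, 1 of 9 B cell, 1 of 14 neutrophil and 0 of 7 erythroid genes. They were also 2 of 11 monocyte and macrophage and 1 of 8 natural killer cell genes. Over all genes the groups did not overlap for 9.42%. The lowest adjusted p of these markers in limma was 0.408, for Spic.

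Mitochondrial ribosomal protein transcripts were measured at nearly the same level in T cells of rapamycin and PBS mice. Of the 48 large subunit genes 0 passed an adjusted p of 0.05 by limma, where 0.00502% of all genes did (the single gene Glp1r). An unadjusted p under 0.05 was found for 0 of them and for 4.67% of all genes, 1.6% higher and 3.07% lower with rapamycin. Of the large subunit genes 19 lay higher and 29 lower with rapamycin, and 44.7% of all 19938 genes lay higher. The median difference was -0.011 for the large subunit genes and -0.012 for all genes. Single differences ran from -0.20 for Mrpl40 to 0.17 for Mrpl21. The adjusted p was 0.9998 for every one of the 77 genes.

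The small subunit showed the same picture. Of its 29 genes 0 passed the adjusted threshold and 0 had an unadjusted p under 0.05. With rapamycin 15 lay higher and 14 lower, the median difference was 0.013, and single differences ran from -0.13 for Mrps24 to 0.13 for Mrps25. These values describe sorted bulk samples, in which fewer cells of a type and less RNA per cell cannot be told apart. The sign counts depended on scaling: after quantile normalization between arrays 26 of 48 large subunit genes lay higher (54.2%, against 39.6% as deposited), and after centring every array on its median 24 did.

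**Figure D1:**
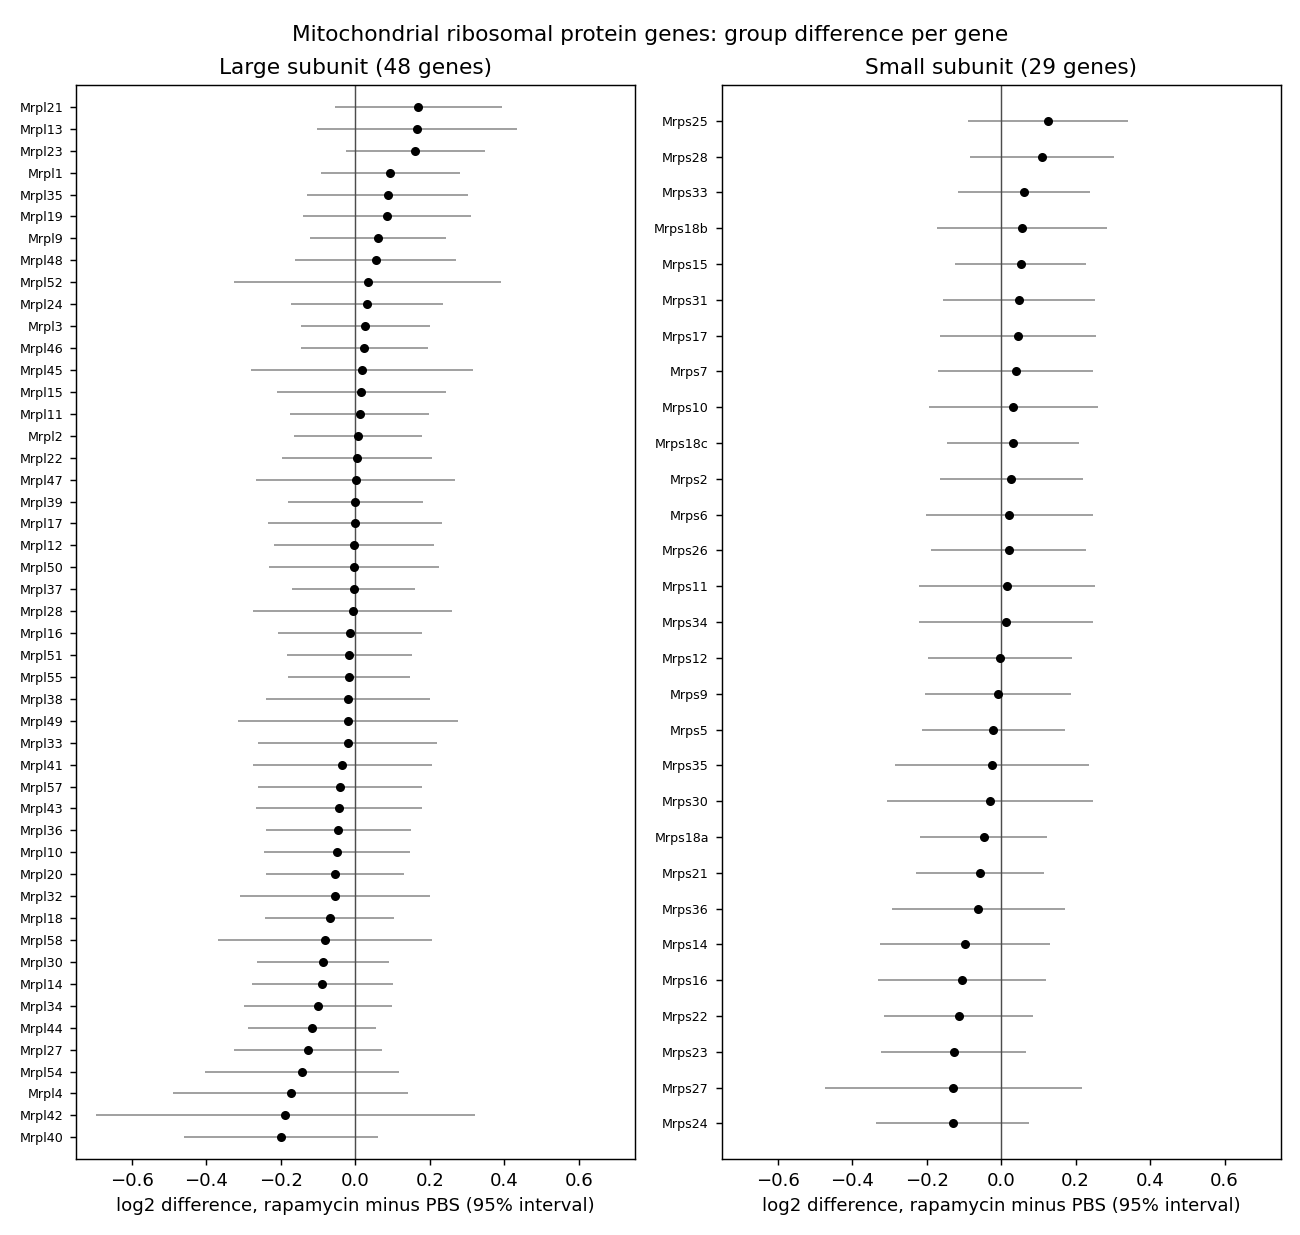
Group difference of each mitochondrial ribosomal protein gene on the log2 scale (points) with its 95% interval (lines), 48 large subunit genes at left and 29 small subunit genes at right, ordered by difference. Every interval covers 0, and the point estimates span -0.20 to 0.17.

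The intervals give, for each gene on its own, the range of differences compatible with the deposited values. They are not adjusted for the number of genes and do not cover a shift that RMA would remove. For 76 of the 77 genes the 95% interval lay within a 1.5-fold change in either direction, and for 62 of 77 (80.5%) it lay within 1.25-fold; over all genes this held for 95.5% and for 11961 of 19938. The exception at 1.5-fold was Mrpl42, whose interval ran from -0.70 to 0.32. All 77 differences were under 0.2 log2 in size, as were 91.1% over all genes, and 60 of 77 were under 0.1. The standard error of a difference had a median of 0.094 for the large and 0.091 for the small subunit, and 0.095 over all genes. These errors are drawn toward a common value by the fit and include variation between mice. Precision of measurement cannot be read from them.

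**Figure D2:**
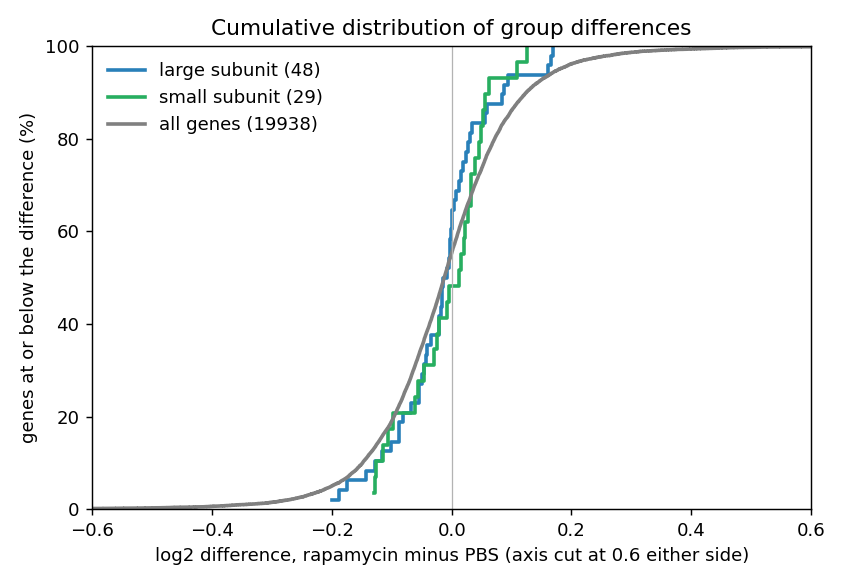
Cumulative share of genes (vertical axis, %) at or below a given log2 difference, rapamycin minus PBS (horizontal axis), for 48 large subunit genes, 29 small subunit genes and all 19938 genes. The member curves cross 0 near the curve of all genes and end between -0.20 and 0.17, where the curve of all genes runs on.

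Proteins with a bacterial counterpart and proteins of the mitochondrial ribosome alone were also set side by side. In the large subunit 14 of 30 genes with a bacterial counterpart lay higher (median -0.0019), and 5 of 18 mitochondria-specific genes did (median -0.019). In the small subunit these were 10 of 17 (median 0.022) and 5 of 10 (median -0.0060). In none of these 4 classes did a gene pass, and the difference between classes was not tested.

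Among large subunit genes that lay higher, Mrpl23 had the smallest p. Mrpl23 encodes the counterpart of bacterial L23, a protein at the mouth of the tunnel through which the new chain leaves. Its level was 8.57, 8.77 and 8.74 in the rapamycin mice, against 8.50, 8.54 and 8.56 in the PBS mice. The groups did not overlap, though rapamycin replicate 1 lay close to the highest PBS mouse. The difference was 0.16 (SE 0.08, 95% interval -0.03 to 0.35, unadjusted p = 0.0827 and adjusted p = 0.9998 in limma), a 1.12-fold level. A second Mrpl23 probe set gave 0.14.

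Mrpl21, the counterpart of bacterial L21, measured 8.08, 8.20 and 8.09 with rapamycin, against 7.87, 7.85 and 8.14 with PBS, and PBS replicate 3 lay among the rapamycin mice. Its difference was 0.17 (SE 0.10), and 0.26 without PBS replicate 3. Mrpl13, the L13 counterpart, measured 7.89, 8.28 and 8.17 with rapamycin and 7.87, 7.88 and 8.09 with PBS, a difference of 0.17 (SE 0.12) with overlapping groups; it was 0.28 without rapamycin replicate 1 and 0.08 without rapamycin replicate 2. Mrpl1, counterpart of the protein of the mobile L1 stalk, differed by 0.09 (SE 0.08), and by 0.14 without rapamycin replicate 1 and 0.05 without PBS replicate 3. Mrpl35, the L35 counterpart, differed by 0.09 (SE 0.09), and by 0.18 without rapamycin replicate 1 and 0.04 without rapamycin replicate 2. For Mrpl1 and Mrpl35 rapamycin replicate 1 lay within or below the PBS mice.

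Among large subunit genes that lay lower, Mrpl40, a mitochondria-specific protein of the central protuberance, had the smallest p. Its level was 8.77, 9.07 and 8.93 in the rapamycin mice, against 8.98, 9.08 and 9.32 in the PBS mice. The groups overlapped, and the difference was -0.20 (SE 0.11, 95% interval -0.46 to 0.06, unadjusted p = 0.118). It was -0.10 without PBS replicate 3, -0.12 without rapamycin replicate 1 and -0.09 with the neutrophil marker mean as a covariate. Mrpl44, a protein with a ribonuclease III-like fold, measured 7.26, 7.22 and 7.33 with rapamycin and 7.38, 7.43 and 7.34 with PBS; all 3 rapamycin mice lay below the PBS mice, the closest pair narrowly, and the difference was -0.12 (SE 0.07).

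Mrpl27, whose bacterial counterpart L27 reaches the site of peptide bond formation, differed by -0.13 (SE 0.09), and by -0.08 without rapamycin replicate 1. Mrpl4, whose counterpart lines the exit tunnel, differed by -0.17 (SE 0.14), with 9.30 in rapamycin replicate 1 and 9.77 and 9.74 in the other rapamycin mice, against 9.78, 9.63 and 9.92 with PBS. Rapamycin replicate 1 stood apart, and without it the difference was -0.02. Mrpl54, a mitochondria-specific protein, showed the same shape: 8.59, 8.96 and 8.90 with rapamycin and 8.89, 8.89 and 9.10 with PBS, a difference of -0.14 (SE 0.11) that was -0.03 without rapamycin replicate 1.

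Groups without overlap were few. They were found for 3 of the 77 genes, Mrpl23 higher and Mrpl44 and Mrpl18 lower, and for 9.42% of all genes (3.14% higher and 6.28% lower). Mrpl18, the L18 counterpart, was named here after its values were seen; it measured 10.03, 10.16 and 10.16 with rapamycin and 10.18, 10.20 and 10.18 with PBS, a difference of -0.07 (SE 0.08). In the small subunit 0 of 29 genes separated the groups.

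In the small subunit Mrps25, a mitochondria-specific protein, had the smallest p among genes that lay higher. It measured 7.70, 7.60 and 7.42 with rapamycin and 7.36, 7.51 and 7.47 with PBS, a difference of 0.13 (SE 0.09, 95% interval -0.09 to 0.34, unadjusted p = 0.214); it was 0.06 without rapamycin replicate 1 and 0.20 without rapamycin replicate 3. Mrps28 differed by 0.11 (SE 0.08), Mrps33 by 0.06 (SE 0.08) and Mrps15, the S15 counterpart, by 0.05 (SE 0.08). In all 4 the groups overlapped, and without rapamycin replicate 2 Mrps28, Mrps33 and Mrps15 differed by 0.06, 0.02 and 0.02.

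In the other direction stood Mrps23, a mitochondria-specific protein, at 9.01, 9.07 and 9.22 with rapamycin and 9.21, 9.16 and 9.30 with PBS, a difference of -0.13 (SE 0.09, unadjusted p = 0.174). Mrps24, the counterpart of S3, which forms part of the entry channel for messenger RNA, measured 8.59, 8.69 and 8.64 with rapamycin and 8.88, 8.62 and 8.81 with PBS, a difference of -0.13 (SE 0.09). In Mrps24 the low value of PBS replicate 2 brought the groups into overlap; the difference was -0.21 without that mouse and -0.08 without PBS replicate 1. Mrps22, in which mutations cause mitochondrial disease in humans, differed by -0.11 (SE 0.09), and Mrps16, the S16 counterpart, by -0.11 (SE 0.10). Without rapamycin replicate 1 these were -0.04 for Mrps22 and -0.20 for Mrps16, and without rapamycin replicate 2 Mrps16 was -0.05.

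**Figure D3:**
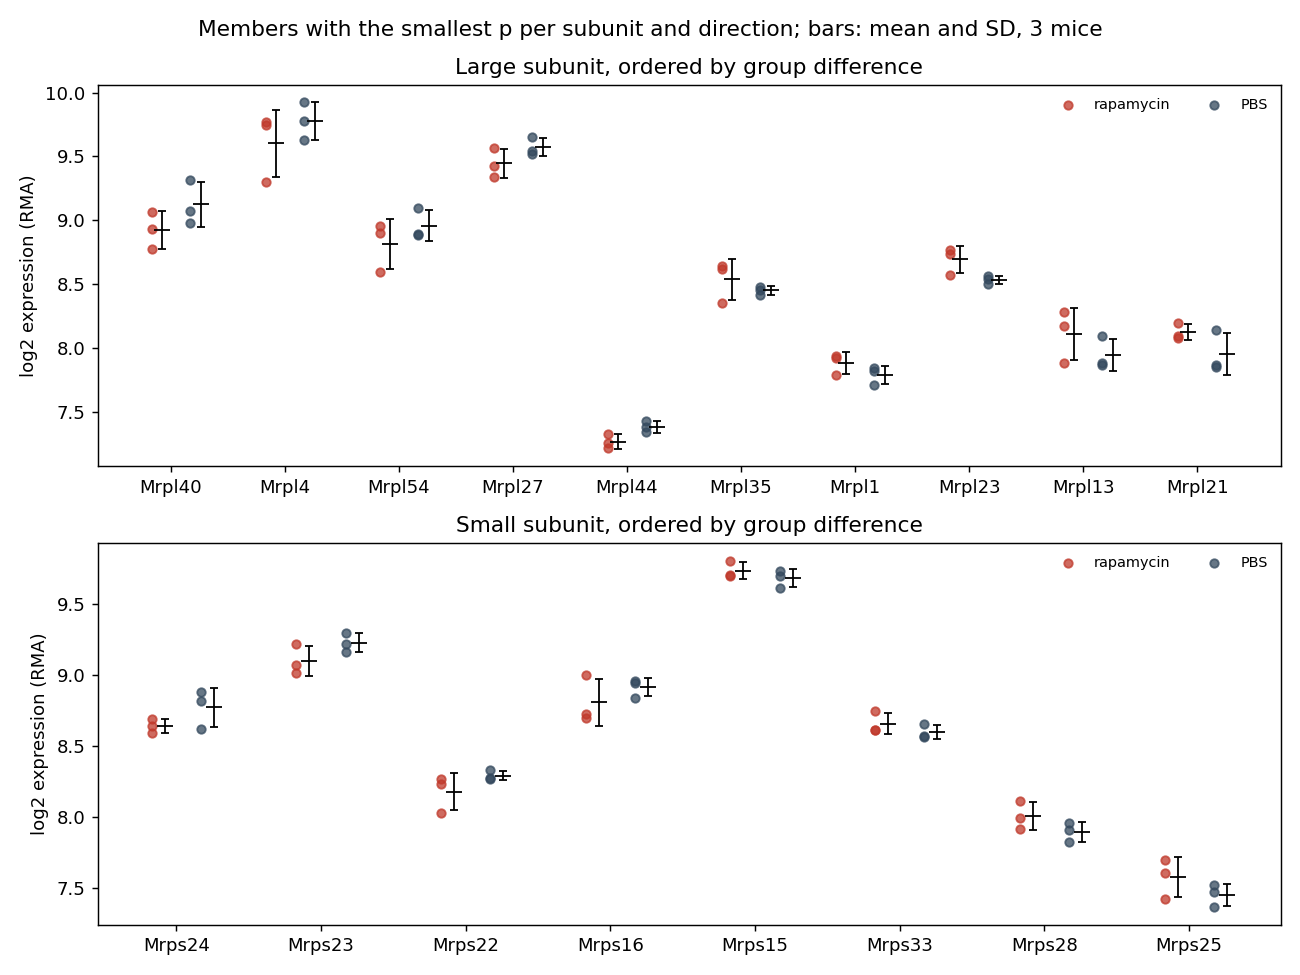
Level per mouse (log2 expression, vertical axis) of the large subunit genes (top) and small subunit genes (bottom) with the smallest p in each direction, rapamycin mice left of PBS mice, with mean and SD beside the points (3 mice a group). Mrpl23 and Mrpl44 show groups that do not overlap. In all genes shown but Mrpl21, Mrpl44 and Mrps24 the range over the rapamycin mice is wider than the step between the groups.

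Some members were described for their role whatever their values. Mrpl12, the L7/L12 counterpart that recruits translation factors to the stalk, averaged 9.01 ± 0.08 with rapamycin and 9.02 ± 0.14 with PBS (SD, n = 3 each), a difference of -0.0031 (95% interval -0.22 to 0.21). Mrps12, the decoding protein, averaged 8.04 ± 0.10 with rapamycin and 8.05 ± 0.08 with PBS. Mrpl45, which holds the ribosome at the inner membrane, differed by 0.02 (95% interval -0.28 to 0.32), and Mrpl58, a peptidyl-tRNA hydrolase built into the large subunit, by -0.08 (95% interval -0.37 to 0.21).

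The S18 family has 3 paralogs in mammals. Mrps18a differed by -0.05 (SE 0.07), Mrps18b by 0.06 (SE 0.10) and Mrps18c by 0.03 (SE 0.08). Mrps18a and Mrps30 carry small subunit names but sit in the large subunit in mammalian structures; Mrps30 differed by -0.03 (SE 0.12). They were counted here by their names. Mrps36, likewise counted by name, is now known mainly as a subunit of the oxoglutarate dehydrogenase complex.

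The spread among mice of 1 group was set beside the group difference, though a range over 3 mice and a difference of group means are unlike measures. The range over the 3 rapamycin mice had a median of 0.21 over the 77 genes and that over the PBS mice 0.17, while the median size of the group difference was 0.045. Over all genes the corresponding medians were 0.21, 0.19 and 0.067, so a wide range was not particular to the members. In 76 of 77 genes the range within at least 1 group exceeded the group difference, as it did in 95.3% of all genes.

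The spread was shared by many members. Rapamycin replicate 1 had the lowest level of all 6 mice in 35 of 77 genes (45.5%), where it was lowest in 23.0% of all genes. It lay below rapamycin replicate 2 in 62 of 77 genes, by a median of 0.18, where this held for 49.3% of all genes. Among PBS mice, replicate 1 lay below replicate 3 in 68 of 77 genes, by a median of 0.12, against 49.5% of all genes. The low level of rapamycin replicate 1 was not particular to the members. It was the lowest mouse in 10 of 22 mitoribosome assembly and rRNA modification genes (45.5%). The share was 42.1% for mitochondrial aminoacyl-tRNA synthetases and 37.5% for mitochondrial translation factors. It was 30.6% for cytosolic ribosomal proteins and 25% for genes of mitochondrial transcription and genome maintenance. These counts describe 6 mice and carry no test.

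The median position of the 77 genes relative to each gene's mean over the 6 mice was -0.098, 0.064 and 0.032 in rapamycin replicates 1, 2 and 3, and -0.029, 0.0018 and 0.070 in PBS replicates 1, 2 and 3. Each group thus held mice on both sides of 0. For the large subunit these values were -0.13, 0.06 and 0.03 with rapamycin and -0.02, -0.0038 and 0.08 with PBS. For the small subunit they were -0.08, 0.09 and -0.00082 with rapamycin and -0.06, 0.0058 and 0.07 with PBS. In both subunits rapamycin replicate 1 was the lowest mouse and PBS replicate 1 the next lowest, and rapamycin replicate 2 and PBS replicate 3 were the highest. The low position of rapamycin replicate 1 was widest in the 18 mitochondria-specific large subunit genes, with a median of -0.19 and the lowest level of all mice in 13 of them; in the 30 large subunit genes with a bacterial counterpart the median was -0.07 and the count 13.

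Marker genes of other cells varied among the mice. The neutrophil marker mean was 9.91, 8.82 and 9.31 in rapamycin replicates 1, 2 and 3 and 9.52, 9.13 and 8.21 in PBS replicates 1, 2 and 3, so that the mouse with the highest neutrophil mean had the lowest member median and the mouse with the lowest had the highest. Of the 14 neutrophil genes 13 lay higher with rapamycin, where 44.7% of all genes did, and 0 passed. The means of the monocyte and macrophage, natural killer cell, B cell and erythroid lists followed no such order. In rapamycin replicates 1, 2 and 3 the monocyte and macrophage mean was 8.45, 8.40 and 8.93. In PBS replicates 1, 2 and 3 it was 9.14, 8.84 and 8.75. In the same mice the natural killer cell mean was 7.41, 7.64 and 7.62 with rapamycin and 7.89, 7.40 and 7.70 with PBS. The B cell mean was 5.05, 5.08 and 4.95 with rapamycin and 5.16, 5.12 and 4.98 with PBS, and the erythroid mean was lowest in PBS replicate 2 (6.23) and highest in rapamycin replicate 2 (6.72). The T cell marker mean ran opposite to the neutrophil mean, at 11.08, 11.30 and 11.15 with rapamycin and 11.14, 11.22 and 11.31 with PBS. Like the member median, the T cell marker mean was lowest in rapamycin replicate 1 and highest in PBS replicate 3. With the neutrophil mean as a covariate in the gene model, 0 of 77 members passed, and Mrpl13, Mrpl21 and Mrpl23 had unadjusted p under 0.05 (3 of 77, where 7.79% of all genes had one in that fit). Their differences were then 0.27, 0.24 and 0.20, and their adjusted p 0.535 to 0.615 in limma. Unadjusted p under 0.05 was also found for Mrpl13 and Mrpl23 with array weights (7.43% of all genes), for Mrpl13, Mrpl23 and Mrps16 without rapamycin replicate 1 (7.75%), for Mrps24 without PBS replicate 2 (4.66%) and for Mrpl21 without PBS replicate 3 (4.53%). The part of these cells in the spread among mice was not tested otherwise.

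**Figure D4:**
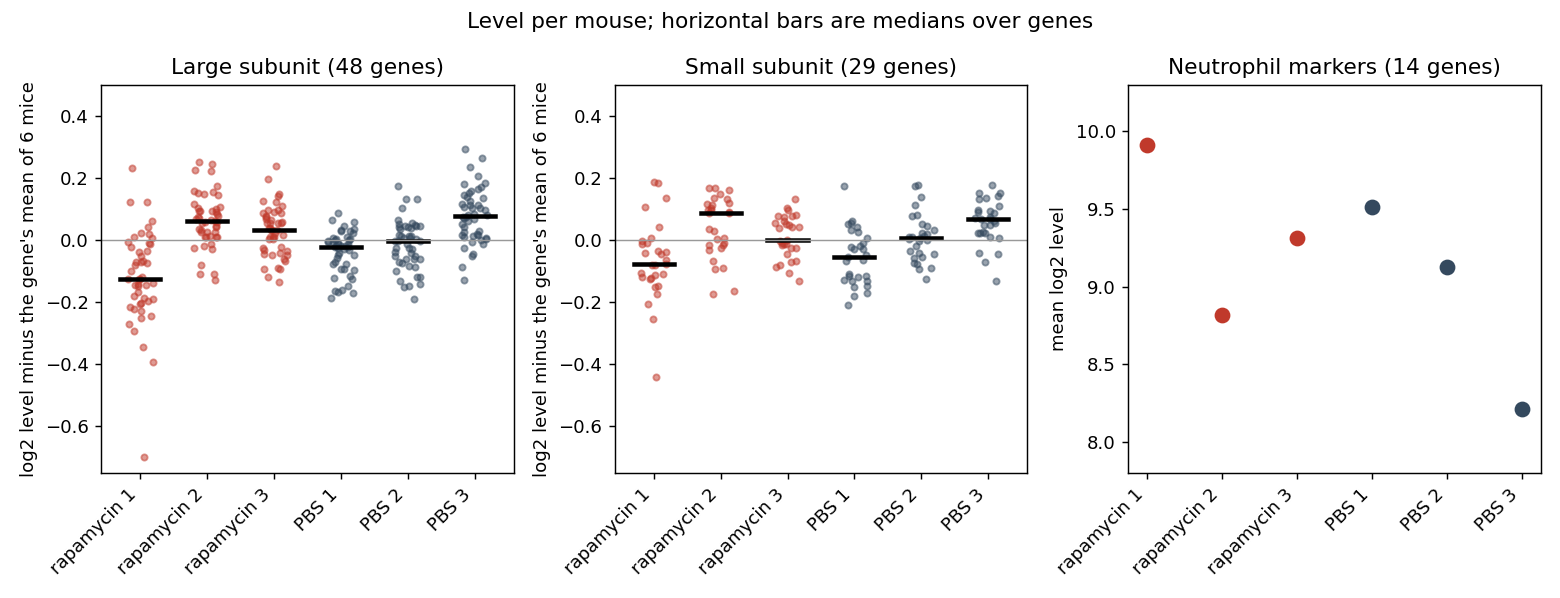
Left and middle: level of every large and small subunit gene in each mouse minus that gene's mean over 6 mice (log2, points), with the median over genes (bars). Right: mean log2 level of 14 neutrophil markers in the same mice. Rapamycin replicate 1 has the lowest medians (-0.13 and -0.08) and the highest neutrophil mean (9.91); PBS replicate 3 has the lowest neutrophil mean (8.21).

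A few members were lowest by a wide step in rapamycin replicate 1; they were named after their values were seen. Mrpl42 measured 6.17 in that mouse and 7.09 and 7.06 in the other rapamycin mice, against 6.86, 7.04 and 6.98 with PBS. Mrps27, a pentatricopeptide repeat protein, measured 6.88, 7.49 and 7.40 with rapamycin and 7.36, 7.33 and 7.48 with PBS. Mrpl52 measured 9.40, 9.99 and 9.89 with rapamycin and 9.65, 9.62 and 9.91 with PBS. Without that mouse the differences of Mrpl42, Mrps27 and Mrpl52 were 0.11, 0.06 and 0.21, against -0.19, -0.13 and 0.03 with it, and none passed. Without rapamycin replicate 1 the median difference was 0.031 for the large and 0.024 for the small subunit, 31 of 48 and 18 of 29 genes lay higher, and 0 passed. Without PBS replicate 1 the medians were -0.031 and -0.044 and 11 of 48 and 10 of 29 genes lay higher. The sign of either median therefore rested on single mice.

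Other parts of the mitochondrial translation system were also measured. Of 4 mitoribosomal proteins whose symbols lack the prefix (Dap3, Ptcd3, Chchd1 and Gadd45gip1), 0 passed and the differences ran from -0.05 to 0.01. For the counts of direction that follow, 11016 of all 19938 genes lay lower and 44.7% higher. Of 16 translation factors 12 lay lower and 0 passed, with a median of -0.032. Tufm, the elongation factor that brings aminoacyl-tRNA, measured 8.64, 8.68 and 8.57 with rapamycin and 8.74, 8.82 and 8.79 with PBS. Its difference was -0.15 (SE 0.07, unadjusted p = 0.0701), and the groups did not overlap. Gfm2, a factor of ribosome recycling, differed by -0.15 (SE 0.07) and also separated the groups. Groups without overlap, lower with rapamycin, were found for 6.28% of all genes. The recycling factor Mrrf differed by 0.07 and the RNA-binding protein Slirp by 0.05.

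Of 22 assembly and rRNA modification factors 12 lay lower and 0 passed (median -0.0061), with Mpv17l2 at -0.21 (SE 0.13), the helicase Ddx28 at -0.10, the methyltransferase Mrm1 at 0.10 and Mterf3 at 0.10. Of 19 mitochondrial aminoacyl-tRNA synthetases and amidotransferase subunits 15 lay lower and 0 passed (median -0.029), with Pars2 at -0.15, Fars2 at -0.13, Ears2 at 0.12 and Gatb at 0.09. Of 16 genes of mitochondrial transcription and genome maintenance 9 lay higher and 0 passed (median 0.036). Twnk, the helicase of mitochondrial DNA, measured 6.24, 6.09 and 6.18 with rapamycin and 5.82, 6.04 and 5.86 with PBS, a difference of 0.26 (SE 0.09, unadjusted p = 0.0174, adjusted p = 0.982). In that list Ssbp1 differed by 0.12, Nrf1 by -0.07 and the RNA polymerase Polrmt by -0.10. Mrm1, Ears2 and Twnk separated the groups, all higher with rapamycin, as did 3.14% of all genes.

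Cytosolic ribosomal protein genes, the closest functional counterpart, gave a median of 0.039 with 41 of 49 genes higher, where 44.7% of all genes lay higher. The median over the members was -0.0043 with 34 of 77 higher, and the difference between these sets of genes was not tested.

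The promoters of the members were searched for short motifs of factors known to drive nuclear genes for mitochondrial proteins. RefSeq windows on GRCm38.p6, 300 bases each from 250 before to 50 after the gene start, were used for 68 of the 77 genes, and both strands were searched. Windows on a single chromosome had been left out beforehand, for members and for all protein-coding genes alike. CCGGAAG, the core recognised by ETS factors such as GABPA, was found in 14 of 42 large subunit genes (33.3%) and 11 of 26 small subunit genes (42.3%), and in 12.9% of 17491 protein-coding genes. AAGATGG, a core of the YY1 motif, was found in 16.7% of large and 23.1% of small subunit genes, against 7.18% of protein-coding genes. GCATGCG, a core of the NRF1 motif, was found in 7 of 42 large and 1 of 26 small subunit genes (11.8% of members, against 4.95%). CACGTG, the E-box bound by Myc among others, was found in 5 of 68 members (7.35%, against 8.91%). A match is a string of letters and not shown to be a site. Members with the ETS core had a median difference of -0.021 and members without it -0.0035.

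**Figure D5:**
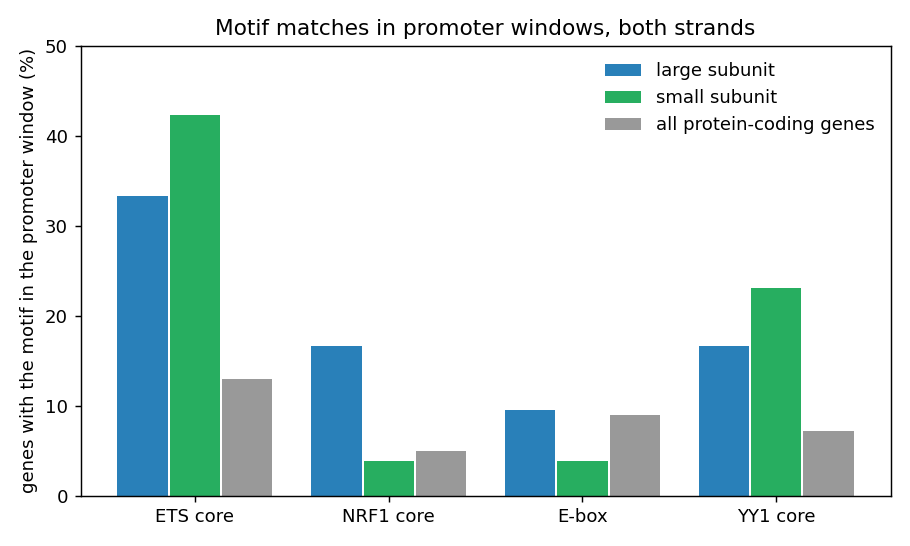
Share of genes (vertical axis, %) whose 300-base promoter window holds each motif on either strand, for 42 large subunit genes, 26 small subunit genes and 17491 protein-coding genes. The ETS core is found in 33.3% and 42.3% of the subunit genes, against 12.9% of protein-coding genes.

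Of the members named for small p, 8 hold an ETS or YY1 match. The windows of 5 are printed as examples with matches on either side of the start, and those of Mrps24 (YY1), Mrps33 and Mrps16 (both ETS) are not; capitals mark the ETS core (CCGGAAG or its reverse complement CTTCCGG) or, in Mrpl35, the YY1 core on both strands, and none of the capital stretches overlap. They are Mrpl21 at chr19:3282792-3283091 on the plus strand, Mrpl27 at chr11:94653541-94653840 on the plus strand, Mrpl35 at chr6:71823735-71824034 on the minus strand, Mrps22 at chr9:98601630-98601929 on the minus strand and Mrps23 at chr11:88204138-88204437 on the plus strand, each written 5′ to 3′ in the direction of the gene.
Mrpl21: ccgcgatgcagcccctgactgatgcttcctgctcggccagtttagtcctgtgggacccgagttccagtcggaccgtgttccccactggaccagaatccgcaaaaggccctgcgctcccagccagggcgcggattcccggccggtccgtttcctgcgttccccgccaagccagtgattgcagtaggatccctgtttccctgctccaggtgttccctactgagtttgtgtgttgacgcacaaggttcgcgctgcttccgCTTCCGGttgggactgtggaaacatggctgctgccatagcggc
Mrpl27: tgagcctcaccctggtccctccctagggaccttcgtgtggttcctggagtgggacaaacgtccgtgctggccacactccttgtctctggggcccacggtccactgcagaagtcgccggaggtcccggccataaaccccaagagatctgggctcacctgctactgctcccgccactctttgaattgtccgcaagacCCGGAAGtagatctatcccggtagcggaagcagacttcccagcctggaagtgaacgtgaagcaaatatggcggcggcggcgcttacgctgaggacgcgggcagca
Mrpl35: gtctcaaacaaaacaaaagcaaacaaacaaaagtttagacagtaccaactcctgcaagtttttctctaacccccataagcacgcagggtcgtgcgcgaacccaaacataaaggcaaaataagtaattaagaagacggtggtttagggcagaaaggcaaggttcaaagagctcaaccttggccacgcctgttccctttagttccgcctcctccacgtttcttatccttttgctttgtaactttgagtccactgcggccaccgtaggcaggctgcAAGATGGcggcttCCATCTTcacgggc
Mrps22: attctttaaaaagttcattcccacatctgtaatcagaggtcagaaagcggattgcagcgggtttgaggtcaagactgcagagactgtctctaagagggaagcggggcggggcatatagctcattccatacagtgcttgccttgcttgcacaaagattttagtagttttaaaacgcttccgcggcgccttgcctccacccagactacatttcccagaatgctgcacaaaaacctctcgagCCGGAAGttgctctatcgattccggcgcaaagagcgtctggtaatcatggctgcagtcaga
Mrps23: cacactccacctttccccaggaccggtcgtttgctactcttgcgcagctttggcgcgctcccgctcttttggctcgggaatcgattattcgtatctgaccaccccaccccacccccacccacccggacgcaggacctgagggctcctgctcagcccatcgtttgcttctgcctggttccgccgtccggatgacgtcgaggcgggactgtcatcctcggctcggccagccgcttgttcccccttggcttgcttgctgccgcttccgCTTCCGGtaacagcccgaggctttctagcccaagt

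In Mrpl21 and Mrps23 the ETS core lies just after the start, at bases 8 and 16 of the transcript side, and in Mrps22 and Mrpl27 it lies before it, by 11 and 55 bases. In Mrpl35 both YY1 cores lie after the start. These 5 genes differed in either direction, at 0.17, -0.13, 0.09, -0.11 and -0.13 in the order printed. The windows of Mrpl23 and Mrpl40 held none of these 4 motifs.

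Probe sets limit what can be said of single genes. The 77 genes had 85 probe sets with a single symbol, and 8 genes had 2 of them. In 0 of those 8 did the probe sets differ in direction, and the widest gap between them was 0.098 log2, for Mrpl51 (-0.02 and -0.11); for Mrpl27 the values were -0.13 and -0.03. RefSeq lists 6 pseudogenes of these families (Mrpl23-ps1, Mrpl27-ps, Mrpl48-ps, Mrps36-ps1, Mrps36-ps2 and Mrps36-ps3), and whether probes of these genes also read such copies was not tested. Mrpl53 shared its probe set with Ccdc142 and was not analysed here.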

How the data were processed

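Sorted splenic T cells of 3 rapamycin and 3 PBS mice were measured on 1 array each; groups and numbers follow the titles, where each sample is a biological replicate; nothing more is said of their independence. The deposited values are log2 expression, made by the authors with Affymetrix Expression Console and RMA per the submitters' processing notes; the software version and summary level are not given in the sources used. RMA equalises the arrays' distributions, so a shift shared by most genes would not be seen, and it compresses low values, so differences of weak genes are understated. The number of arrays limits the precision; levels of different probe sets were not compared.

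Of 35556 probe sets, 21789 had 1 gene symbol in the platform table, 1621 had several and 12146 were not listed; the highest-mean probe set per symbol gave 19938 genes. Differences were fitted with limma 3.58.1 in R 4.3.3 (lmFit and eBayes, group only, 8.44 degrees of freedom) and adjusted by Benjamini-Hochberg over all genes, with a call at an adjusted p under 0.05, two-sided; the fit was tested on simulated data. Members, gene lists and motifs were chosen with earlier results of these data known. Genes were named by rank of p within subunit and direction (up to 5 large, 4 small), by list (2 each way) and by role; others are said to be named after their values were seen. Alternatives were variance trend, array weights, quantile normalization, median centring, a low-value filter, averaged probe sets, a replicate block, a neutrophil covariate and each mouse left out. Figures were drawn with matplotlib 3.10.9 in Python 3.11.15.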

Additional observations from a re-analysis of the deposited data

How the results depend on the processing

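Under all 14 alternatives (8 other settings and 6 fits without 1 mouse) 0 of 48 large and 0 of 29 small subunit genes passed, and the lowest adjusted p of any member was 0.535, with the neutrophil covariate. The median difference ran from -0.047 to 0.031 for the large and from -0.044 to 0.038 for the small subunit, so its sign changed in both. The SD of the mouse medians was 0.080 and 0.073. Shifts smaller than this SD are no sign of stability, because leaving out 1 mouse of 3 moves a group mean by less than that group's SD. Of the 26 genes named by rule or role, 19 kept their sign in all 14 and 7 did not. All genes that changed sign had been named by role, and of the genes named by role only Mrps18a kept its sign. Genes named by rank were picked for small p in these same data, which favours a kept sign. The variance trend, the low-value filter and the replicate block leave the difference of each gene unchanged by design. Averaging probe sets does the same for genes with a single probe set. A kept sign under these settings therefore carries no information. Mrpl12 was 0.0012 with array weights, 0.0040 after quantile normalization, 0.0075 after median centring and 0.011 with the neutrophil covariate; Mrps12 was 0.016 after quantile normalization and 0.0069 after median centring. Mrps30 was 0.058 with array weights and 0.072 with the neutrophil covariate, and Mrpl58 was 0.017 with that covariate. Without 1 mouse Mrpl12 ran from -0.077 to 0.062, Mrpl45 from -0.096 to 0.15, Mrps12 from -0.058 to 0.036, Mrps18b from -0.014 to 0.13, Mrps18c from -0.011 to 0.063, Mrps30 from -0.10 to 0.091 and Mrpl58 from -0.17 to 0.031; the cause was not tested. Replicate numbers are shared by the groups, and deviations of same-numbered mice correlated across genes at 0.09, -0.19 and 0.19. Rapamycin replicates 1 and 2 correlated best with PBS replicates 2 and 3, and rapamycin replicate 3 with PBS replicate 3. The deviations sum to 0 within each group of 3 mice, so these values cannot decide whether the numbers pair the mice. With the replicate block 0 of 48 and 0 of 29 genes passed. Every replicate number is present in both groups, so the block cannot change a difference. Its medians of -0.011 and 0.013 are the same as in the main fit by design.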
